A study of Mus musculus with 12 samples.

Results

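Osteoclasts grown from Prmt5 flox/Δ Ctsk-Cre mice, here called cKO, were compared with osteoclasts grown from control mice, across all genes and from raw read counts. These 6 libraries, 3 cKO and 3 control, were taken by their labels from the 12 samples of the series. The cKO mice carry 1 deleted and 1 floxed allele of Prmt5 and the Cre of the Ctsk-Cre line, so that the floxed allele is lost where and when Ctsk, the cathepsin K gene, is active. Bone marrow cells of C57BL/6 mice of 11 weeks were cultured with M-CSF and then with RANKL and M-CSF, and RNA was taken 72 h after RANKL was added. The design text gives 3 mice per genotype. Both groups share the strain, the age, the culture and the RANKL treatment. No source used here gives the genotype of the control mice behind these libraries, so whether they carry Cre or a deleted Prmt5 allele is not known. The Ctsk-Cre line is a knock-in at Ctsk and acts in mature osteoclasts and in periosteal stem cells, and a culture at 72 h also holds cells that have not matured. In bulk RNA, fewer cells of a type and less RNA per cell cannot be told apart.

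Osteoclasts are the multinucleated cells that dissolve bone. They form when precursors of the monocyte lineage fuse under RANKL, which acts through its receptor RANK and the transcription factor NFATc1. A mature osteoclast seals off a patch of bone with a ring of actin, pumps protons into it and secretes proteases such as cathepsin K. PRMT5, the enzyme encoded by Prmt5, adds symmetric dimethyl marks to arginines of histones and of Sm proteins, the core of the spliceosome's small ribonucleoproteins.

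The table held counts for 46517 genes, of which 22836 had a read and 10724 passed the filter on low counts and were tested. The libraries cKO 2 and cKO 3 were the shallowest, with 1234919 and 984885 reads assigned to genes, against 3608940 in cKO 1 and 2513440 to 2805824 in the controls. Values below are TMM-scaled CPM, the count of a gene relative to the scaled library total, and each log2 fold change is cKO over control from edgeR's quasi-likelihood test, with its standard error (SE). The label of the cells was checked on the defining genes Acp5, Mmp9, Nfatc1 and Ctsk, which all had high counts in all 6 libraries. The 10 genes of highest mean CPM were mt-Co1, Mmp9, Actb, Acp5, Ctsk, Eef1a1, Ftl1, Lyz2, Hspa8 and Psap, and they took 6.54% to 7.51% of the reads of a library. Control 3 stood apart from the other libraries. Xist, the RNA of the inactive X chromosome, had 1, 0 and 0 reads in cKO 1 to 3, against 0, 0 and 1506 reads in control 1 to 3. Ddx3y, on the Y chromosome, had 64.2, 53.7 and 58.2 CPM in cKO 1 to 3, against 53.3, 67.8 and 3.83 CPM in control 1 to 3. The labels used here give no sex. Control 3 moved several of the values below, and the ones it moved most are also given without it.

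Prmt5 (GRCm38 chr14:54507187-54517525, minus strand) fell in the cKO libraries. It had 28.8, 37.8 and 35.3 CPM in cKO 1 to 3, against 58.5, 71.7 and 67.6 CPM in control 1 to 3, and no cKO library reached any control library. The log2 fold change was -1.01 (SE 0.160, edgeR adjusted p = 0.0349), with a 95% interval of -1.35 to -0.67. This is 0.497 times the control level, so Prmt5 reads remained in the cKO libraries. The cKO mice carry 1 deleted allele besides the floxed allele, and the Prmt5 alleles of the controls are not given. The deleted allele and the loss of the floxed allele by Cre thus cannot be told apart in this value. Without control 3 the log2 fold change was -0.99 and the call was lost (edgeR adjusted p = 0.116). The call was also lost without control 2 (adjusted p = 0.281), without cKO 1 (adjusted p = 0.103) and without cKO 3 (adjusted p = 0.132), at log2 fold changes of -0.94, -0.85 and -1.04. Which exons the deletion removes is not stated in the sources used here, and reads of the remaining exons would be counted.

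**Figure D1:**
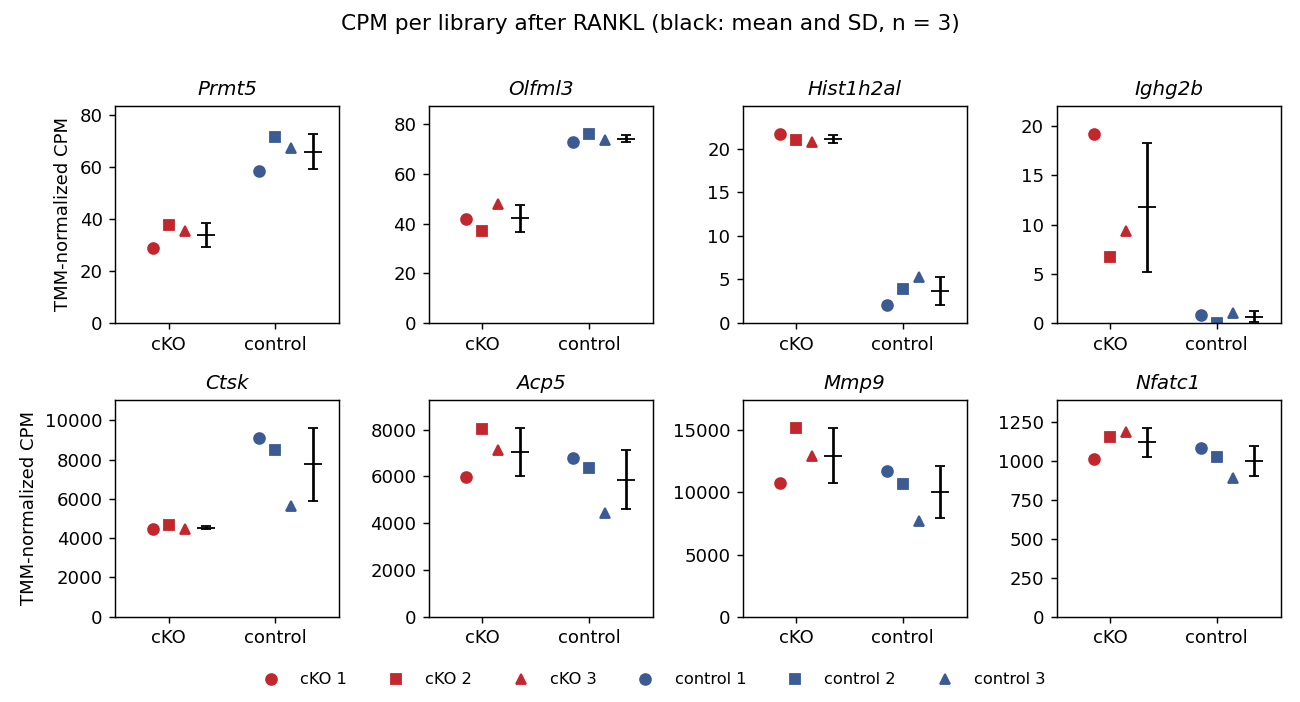
TMM-normalized CPM (vertical axes, from 0) of 8 genes in the 3 cKO libraries (red, left) and the 3 control libraries (blue, right), with black bars for the mean and SD of each group. Prmt5, Olfml3 and Ctsk were lower in every cKO library than in any control library, Hist1h2al and Ighg2b were higher in every cKO library, and Acp5, Mmp9 and Nfatc1 overlapped between the groups.

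Few other genes differed beyond the spread between libraries. Of 10724 genes, 2 rose and 2 fell at an adjusted p under 0.05 from edgeR, which is 0.0186% in each direction. At an unadjusted p under 0.05, 284 genes (2.65%) were higher and 226 (2.11%) were lower in cKO. Every cKO library lay above every control library in 539 genes (5.03%) and below every control library in 593 genes (5.53%). The median log2 fold change over all genes tested was 0.00. The 95% interval lay within a 2-fold change either way in 9050 genes (84.4%) and within a 1.5-fold change in 57.2%. Precision followed the level of a gene. The interval lay within a 2-fold change in 41.5% of the 2584 genes with an average log2 CPM under 4, and in 99.6% of the 2951 genes between 6 and 8. For the rarer genes the interval thus often did not exclude a 2-fold difference. These shares do not say how often a 2-fold difference would be called after adjustment.

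**Figure D2:**
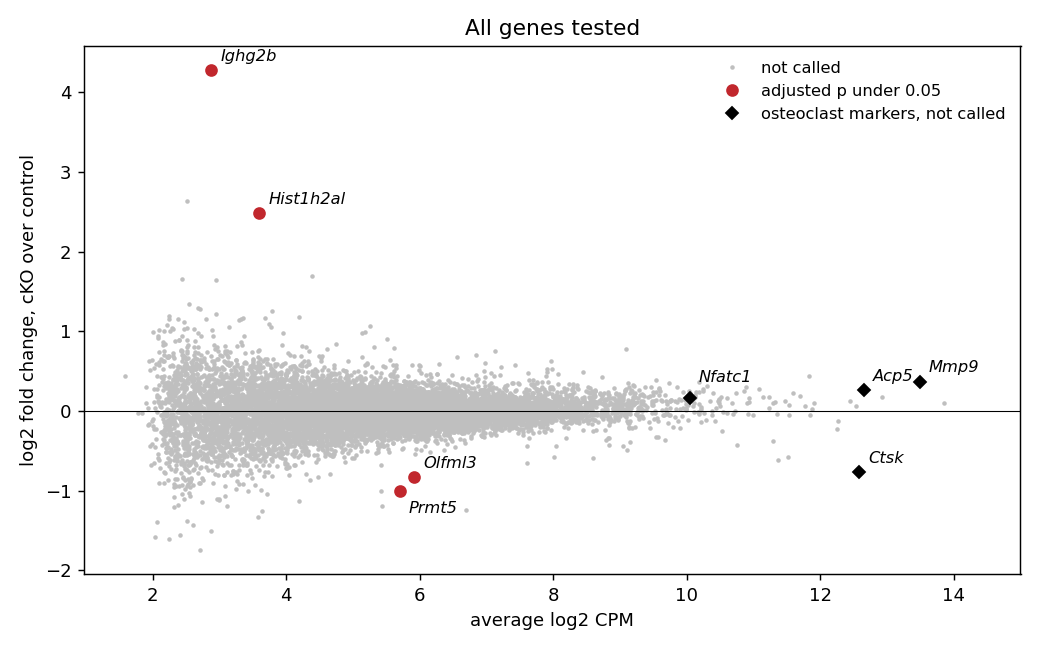
Log2 fold change, cKO over control (vertical axis), against the average log2 CPM (horizontal axis) of the 10724 genes tested. Red points are the 4 genes with an adjusted p under 0.05, black diamonds the osteoclast markers, of which Ctsk lies at -0.77 and the other 3 between 0.16 and 0.37.

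Olfml3, which encodes a secreted olfactomedin-like protein, fell. It had 41.7, 37.0 and 47.8 CPM in cKO 1 to 3, against 72.9, 76.0 and 73.8 CPM in control 1 to 3. The controls lay close together and no cKO library reached them. Its log2 fold change was -0.83 (SE 0.139, edgeR adjusted p = 0.0499), just past the threshold, and between -0.77 and -0.89 without any one library, where the call was lost each time. The gene lies on chromosome 3 of GRCm38 from 103722222 to 103738001.

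Ighg2b, the constant region of an immunoglobulin heavy chain (GRCm38 chr12:113302965-113307933, minus strand), rose. It had 70, 8 and 9 reads in cKO 1 to 3, against 2, 0 and 3 reads in control 1 to 3. In CPM this was 19.2, 6.72 and 9.35 in cKO, against 0.801, 0 and 1.04 in control, so cKO 1 held most of the reads and all cKO libraries lay above the controls. The log2 fold change was 4.28 (SE 0.617, edgeR adjusted p = 0.0160), and without cKO 1 it was 3.54 and was no longer called (edgeR adjusted p = 0.117). The call was also lost without cKO 3 (adjusted p = 0.0554) and without control 2 (adjusted p = 0.108). Of its 50-base stretches, 4.15% also occur in the transcripts of Ighg2c, Ighg3 or Ighg1. Osteoclasts do not make immunoglobulin, so the other genes of B and plasma cells were read beside it. Of 22 genes in that list only 4 had enough reads to be tested. Ighg2b, Igkc and Cd79b passed the filter on low counts only with their cKO libraries. Being tested is thus no support for a rise in cKO. Igkc, the kappa light chain, had 8.77, 6.72 and 10.4 CPM in cKO 1 to 3, against 2.003, 3.10 and 5.22 CPM in control 1 to 3, a log2 fold change of 1.28 (SE 0.422). Cd79b, a subunit of the B cell receptor, had a log2 fold change of 0.70 (SE 0.425) and Ighm, the mu heavy chain, one of -0.42 (SE 0.320). The summed level of the 22 genes was 62.0, 35.3 and 63.4 CPM in cKO 1 to 3, against 32.4, 31.4 and 50.1 CPM in control 1 to 3. This sum includes Ighg2b and Igkc themselves, so it is not separate from their values. Ms4a1, Vpreb1 and Iglc3 had no read in any library. The part of such cells in the Ighg2b value was not tested.

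Hist1h2al, a histone H2A sequence annotated as a processed pseudogene, rose. It had 79, 25 and 20 reads in cKO 1 to 3, against 5, 10 and 15 reads in control 1 to 3. In CPM the cKO libraries lay at 21.7, 21.0 and 20.8, against 2.003, 3.88 and 5.22 in the controls, and the groups were far apart. Hist1h2al also passed the filter on low counts only with its cKO libraries, so being tested is no support for a rise in cKO. The log2 fold change was 2.48 (SE 0.327, edgeR adjusted p = 0.0101), and the call was lost without cKO 3 (adjusted p = 0.0554) or without control 2 (adjusted p = 0.0951), with a log2 fold change of 2.49 or more. Its transcript of 339 bases is 99.4% identical to those of Hist2h2aa1 and Hist2h2aa2 and 98.2% identical to that of Hist2h2ac. Of its 290 stretches of 50 bases, 196 (67.6%) also occur in other genes. The reads of this gene are therefore uncertain, and a stretch of 100 bases shows how little tells the genes apart. It is given 5′ to 3′ from GENCODE on GRCm38, with capitals at the 3 positions where the sequences differ, for Hist1h2al at chr13:51202727-51203065 (minus strand), Hist2h2aa1 at chr3:96245497-96246082 (plus strand) and Hist2h2ac at chr3:96220361-96220880 (minus strand).
Hist1h2al: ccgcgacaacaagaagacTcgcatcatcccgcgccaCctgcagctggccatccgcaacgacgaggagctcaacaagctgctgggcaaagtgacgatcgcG
Hist2h2aa1: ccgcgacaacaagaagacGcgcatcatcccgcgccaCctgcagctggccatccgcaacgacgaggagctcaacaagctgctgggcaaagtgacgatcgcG
Hist2h2ac: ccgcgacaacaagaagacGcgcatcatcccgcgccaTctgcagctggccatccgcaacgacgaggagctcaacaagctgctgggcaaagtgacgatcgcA

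The near-identical genes differed in the direction of their fold changes. Hist2h2ac had 60.9, 47.0 and 60.2 CPM in cKO 1 to 3, against 77.3, 82.6 and 84.6 CPM in control 1 to 3, a log2 fold change of -0.52 (SE 0.134, edgeR adjusted p = 0.876), and no cKO library reached the controls. Hist2h2aa1 had 15.9, 33.6 and 23.9 CPM in cKO 1 to 3, against 19.2, 11.6 and 22.3 CPM in control 1 to 3, and the groups overlapped. Summed over these 3 genes and Hist2h2aa2, a sum chosen after the values were seen, the level was 118, 142 and 136 CPM in cKO 1 to 3, against 115, 110 and 137 CPM in control 1 to 3. The means of the sum, 132 ± 12.4 CPM in cKO and 121 ± 14.3 CPM in control (SD, n = 3 each), differed by less than the spread between libraries. Among all 61 histone cluster genes tested, 5 were higher and 5 were lower at an unadjusted p under 0.05, beside 2.65% and 2.11% of all genes. The median log2 fold change was 0.04, and -0.08 without cKO 2. Hist2h2bb_1, 1 of 2 entries of that symbol in the table, had 37.8, 32.8 and 22.9 CPM in cKO 1 to 3, against 4.01, 8.14 and 17.4 CPM in control 1 to 3. Its log2 fold change was 1.69 (SE 0.345, edgeR adjusted p = 0.234), and it passed without control 3 at 2.41 (adjusted p = 0.00547). The file does not say how the 2 entries differ.

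Ctsk, the cathepsin K gene and the locus of the Cre allele, was the osteoclast marker that differed most. It had 4483, 4644 and 4489 CPM in cKO 1 to 3, against 9119, 8509 and 5632 CPM in control 1 to 3. The cKO libraries lay close together and below all controls, and control 3 lay between cKO and the other controls. The log2 fold change was -0.77 (SE 0.157, edgeR adjusted p = 0.234), and -0.96 without control 3, where it passed (adjusted p = 0.00138). With DESeq2 it passed too (adjusted p = 0.000335). Since the Cre of the cKO mice sits in Ctsk and the Cre status of the controls is not given, the Cre allele and the loss of Prmt5 cannot be told apart in this value. No 50-base stretch of Ctsk occurs in another gene. The promoter of Ctsk is shown because it governs both cathepsin K and, in the knock-in, Cre. It is given 5′ to 3′ from RefSeq on GRCm38.p6, 300 bases at chr3:95498960-95499259 (plus strand), from 250 bases before the start site to 50 bases from it. Capitals mark matches, on either strand, to GGAAA, the core bound by NFAT factors, and to GAGGAA, bound by PU.1, both drivers of osteoclast genes.
Ctsk promoter: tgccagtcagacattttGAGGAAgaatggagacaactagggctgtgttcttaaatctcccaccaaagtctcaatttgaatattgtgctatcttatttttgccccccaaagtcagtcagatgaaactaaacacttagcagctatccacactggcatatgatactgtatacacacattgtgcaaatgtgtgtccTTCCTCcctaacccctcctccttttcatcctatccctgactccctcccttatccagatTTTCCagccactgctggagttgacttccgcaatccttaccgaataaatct

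The window held GAGGAA at -233 to -228 and, on the other strand, at -58 to -53 from the start site, and GGAAA on the other strand from 1 to 5. None of these matches overlapped another. Among 32851 mouse promoters of the same length, 61.3% held GGAAA and 28.3% held GAGGAA, so such matches are common and describe the window only.

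The genes around Ctsk and Prmt5 were read for changes shared along the chromosome. Of 27 genes tested within 500 kb of Ctsk, none passed, and the median log2 fold change was -0.04. Arnt, which ends just before Ctsk on the same strand, overlapped between the groups, with a log2 fold change of -0.04 (SE 0.124). On the other side Ctss, which encodes cathepsin S, starts 27.5 kb from the start of Ctsk. It had 700, 661 and 616 CPM in cKO 1 to 3, against 764, 760 and 959 CPM in control 1 to 3, a log2 fold change of -0.33 (SE 0.118, edgeR adjusted p = 0.950) with no overlap. On the other side of zero stood Ecm1, an extracellular matrix gene at 0.57 (SE 0.190), and Plekho1 at 0.27 (SE 0.113), both with no overlap. Of the 27 genes, 2 lay above and 1 below all controls in every cKO library, beside 5.03% and 5.53% of all genes. Of 20 genes tested within 500 kb of Prmt5, none passed and 3 were higher at an unadjusted p under 0.05, against 2.65% of all genes in that direction. They were Abhd4 at 0.43 (SE 0.146), the lipoprotein receptor family gene Lrp10 at 0.37 (SE 0.134) and Psmb5, a catalytic subunit of the proteasome, at 0.29 (SE 0.133). The median over the 20 genes was 0.11.

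**Figure D3:**
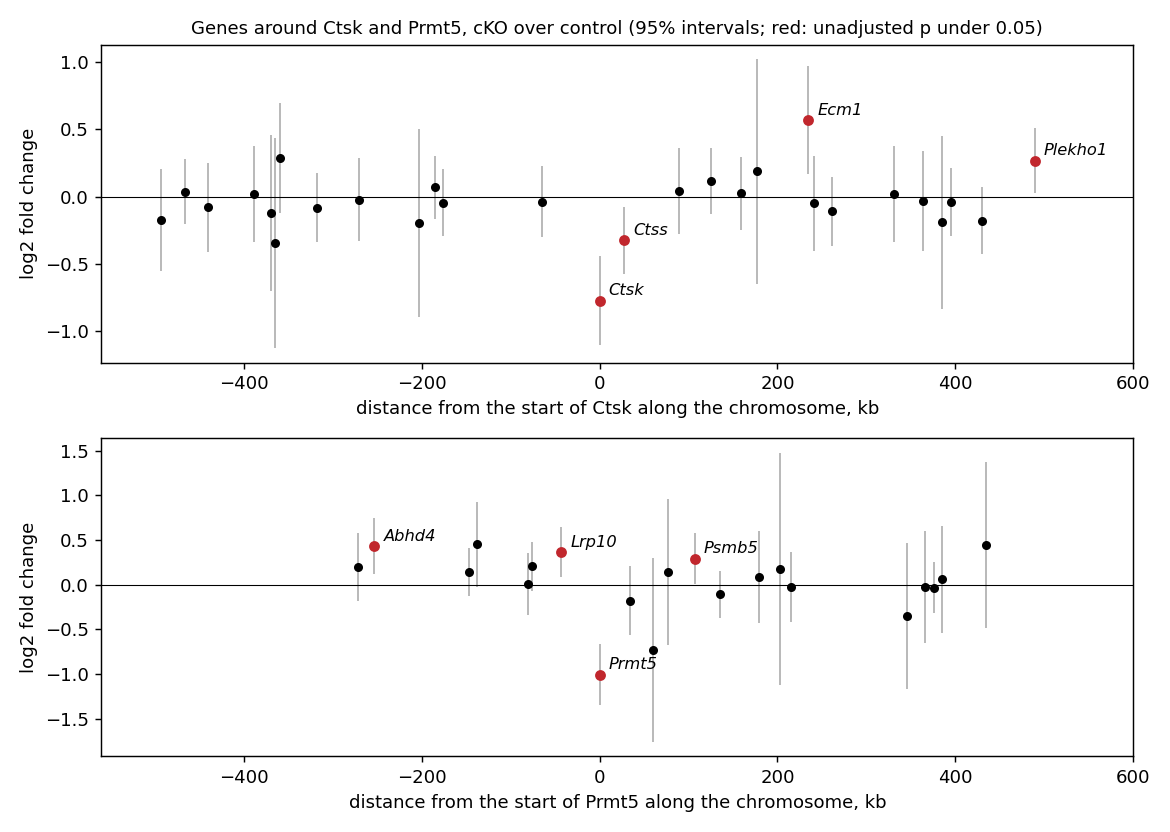
Log2 fold change, cKO over control, with 95% intervals (vertical axes) of the genes tested within 500 kb of Ctsk (top) and Prmt5 (bottom), against the distance of their starts in kb (horizontal axes). Red points have an unadjusted p under 0.05. Ctsk and Ctss lie below 0 and Ecm1 above it, and Prmt5 lies at -1.01 with its neighbours on both sides of 0.

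The other osteoclast markers overlapped between the groups. Acp5, which encodes the phosphatase TRAP, had 5982, 8020.1 and 7140 CPM in cKO 1 to 3, against 6794, 6357 and 4415 CPM in control 1 to 3. Mmp9, a matrix metalloproteinase, had 10735, 15200 and 12954 CPM in cKO 1 to 3, against 11722, 10692 and 7694 CPM in control 1 to 3. Nfatc1, the transcription factor that drives osteoclast formation, had 1012, 1153 and 1185 CPM in cKO 1 to 3, against 1078, 1021 and 888 CPM in control 1 to 3. In all 3 genes control 3 was the lowest library. Their log2 fold changes were 0.27 (SE 0.160) for Acp5, 0.37 (SE 0.167) for Mmp9 and 0.16 (SE 0.115) for Nfatc1, each at an adjusted p of 0.950 from edgeR. Without control 3 they were 0.10 for Acp5, 0.21 for Mmp9 and 0.09 for Nfatc1. The 95% interval of Nfatc1, -0.08 to 0.41, was narrow.

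Genes that signal upstream of NFATc1 had narrow intervals. Of 52 genes of RANK and costimulatory signalling 47 were tested, none was called, and all 47 intervals lay within a 2-fold change. The median log2 fold change was 0.04, beside 0.00 over all genes. Tnfrsf11a, the receptor RANK, had 479, 521 and 515 CPM in cKO 1 to 3, against 503, 507 and 459 CPM in control 1 to 3, and its interval was -0.18 to 0.26. At 1 end of the list stood Bcl6, a repressor of osteoclast genes, with 48.0, 31.9 and 35.3 CPM in cKO 1 to 3, against 53.3, 49.998 and 57.1 CPM in control 1 to 3 and no overlap. Its log2 fold change was -0.40 (SE 0.167). At the other stood Oscar, a costimulatory receptor for collagen, at 0.30 (SE 0.157), and the kinase gene Src at 0.24 (SE 0.130). Fos, a subunit of AP-1, had -0.24 (SE 0.143). In this list 1 gene lay above all controls and 3 lay below them in every cKO library, beside 5.03% and 5.53% of all genes.

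Of 23 genes of cell fusion 21 were tested and none was called. Ocstamp, a membrane protein needed for fusion, had 243, 338 and 278 CPM in cKO 1 to 3, against 211, 214 and 170 CPM in control 1 to 3. All cKO libraries lay above the controls, and the log2 fold change was 0.52 (SE 0.131, edgeR adjusted p = 0.876). Dcstamp, its partner in fusion, had 489, 565 and 531 CPM in cKO 1 to 3, against 492, 529 and 338 CPM in control 1 to 3, with overlap and a log2 fold change of 0.22 (SE 0.142), and of 0.045 without control 3. Itgb3, the integrin beta 3 subunit, had 0.20 (SE 0.124), and the tetraspanin gene Cd9 0.20 (SE 0.124). The median of the list was 0.03.

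Of 28 genes of acid secretion and resorption 25 were tested and none was called. A log2 fold change above 0 was found in 20 of them and below 0 in 5. At an unadjusted p under 0.05, 4 were higher and 1 was lower, beside 2.65% and 2.11% of all genes. Ckb, the creatine kinase that supplies energy for resorption, had 3533, 4863 and 4249 CPM in cKO 1 to 3, against 3404, 3368 and 2529 CPM in control 1 to 3. It was above all controls in every cKO library, with a log2 fold change of 0.44 (SE 0.146). Car2, the carbonic anhydrase that makes the protons, had 178, 216 and 168 CPM in cKO 1 to 3, against 169, 144 and 126 CPM in control 1 to 3, a log2 fold change of 0.35 (SE 0.129) with overlap. Of 18 subunits of the vacuolar proton pump tested, 16 had a log2 fold change above 0 and 2 below it, with a median of 0.18. Atp6v0c, which forms the membrane ring of the pump, had 364, 960 and 770 CPM in cKO 1 to 3, against 496, 432 and 283 CPM in control 1 to 3. The libraries cKO 2 and cKO 3 lay above all controls and cKO 1 lay within their range. The log2 fold change of Atp6v0c was 0.77 (SE 0.256). It passed without cKO 1 at 1.10 (edgeR adjusted p = 0.0226), and stood at 0.45 without cKO 2. These medians moved with control 3: without it, that of resorption genes was 0.06 in place of 0.13, and that of the pump 0.07 in place of 0.18. Among 34 genes of the podosome and actin ring the median was 0.04, and -0.01 without control 3. In that list no gene had an unadjusted p under 0.05, and every interval lay within a 2-fold change. Of 15 cathepsins and cystatins tested, Ctsk and Ctss were the 2 with all cKO libraries below the controls, beside 5.53% of all genes. The median of the 15 was 0.06, and -0.01 without cKO 1. Cstb, the cystatin B gene, had 0.26 (SE 0.126) and Ctsa, cathepsin A, 0.23 (SE 0.116).

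**Figure D4:**
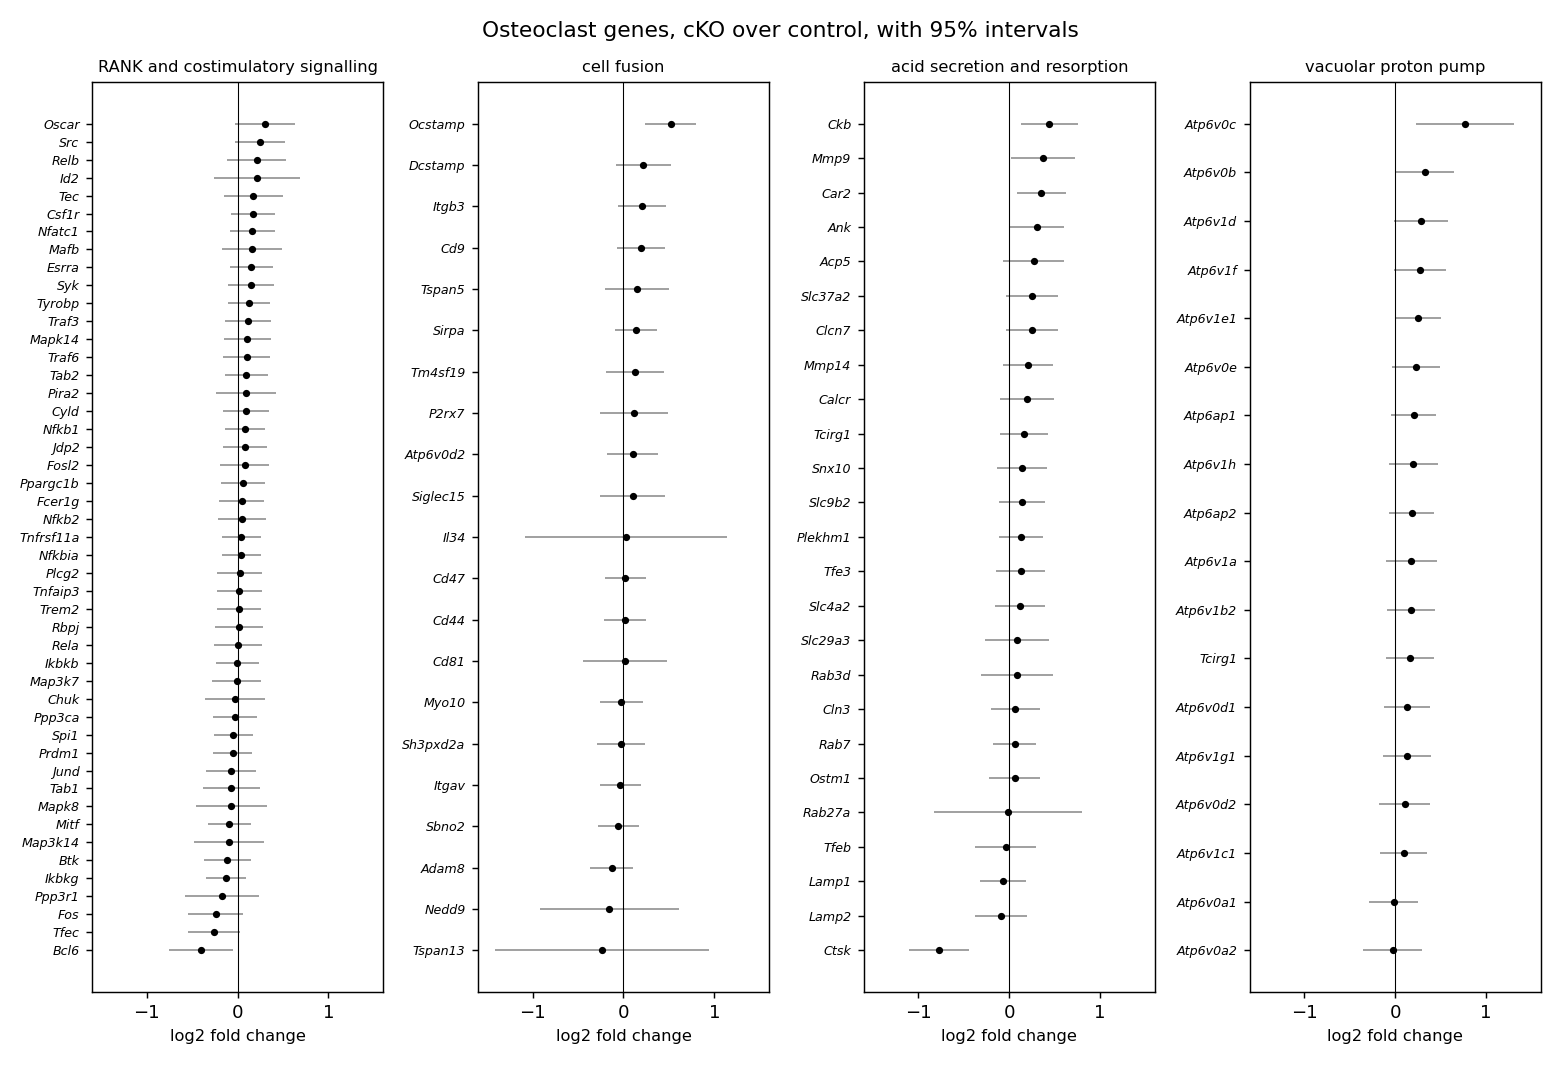
Log2 fold change, cKO over control, with 95% intervals (horizontal axes) of the tested members of 4 osteoclast gene lists, 1 gene a row. Most intervals cross 0, Ctsk lies at -0.77, and Ocstamp (0.52), Ckb (0.44) and Atp6v0c (0.77) lie at the upper ends.

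Markers of other cells of the marrow were read in the same libraries. Of 30 macrophage genes 26 were tested, none was called, and 3 lay above and 2 below all controls, beside 5.03% and 5.53% of all genes. The median log2 fold change was 0.01, but 0.12 without control 3 and -0.10 without cKO 1. Their summed level was 12549, 12124 and 11485 CPM in cKO 1 to 3, against 11174, 11705 and 13040 CPM in control 1 to 3, and no gene of the list was at 0 in all libraries. Cd163, a scavenger receptor of macrophages, had 45.0, 24.4 and 24.9 CPM in cKO 1 to 3, against 13.2, 23.6 and 20.2 CPM in control 1 to 3, a log2 fold change of 0.84 (SE 0.258), and of 0.37 without cKO 1. Mrc1, the mannose receptor, had 151, 124 and 118 CPM in cKO 1 to 3, against 84.1, 107 and 112 CPM in control 1 to 3, a log2 fold change of 0.40 (SE 0.133). In both genes cKO 1 was the highest library. Cd68, a lysosomal protein of macrophages and osteoclasts, had 0.30 (SE 0.126), again with no overlap, while Cx3cr1, the fractalkine receptor, had -0.66 (SE 0.377), and -0.22 without control 3. Relative to each gene's mean over the 6 libraries, the median macrophage gene stood at 0.16, -0.11 and -0.07 log2 units in cKO 1 to 3, against -0.10, -0.05 and 0.26 in control 1 to 3. The proton pump stood at 0.00, 0.21 and 0.10 in cKO 1 to 3, against 0.06, 0.00 and -0.36 in control 1 to 3. Control 3 was thus the lowest library for the pump and the highest for macrophage genes, and the part of cell composition in these values was not tested.

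The 12 tested genes of neutrophils summed, with the 4 untested ones, to 975, 688 and 802 CPM in cKO 1 to 3, against 740, 715 and 980 CPM in control 1 to 3, with the highest values in control 3 and cKO 1. Lcn2, a granule protein, had 0.31 (SE 0.193) and no overlap. Genes of stromal cells and osteoblasts varied most between libraries, with sums of 236, 175 and 574 CPM in cKO 1 to 3, against 531, 276 and 122 CPM in control 1 to 3. The 6 tested genes of dendritic cells had a median log2 fold change of -0.22, and of 0.16 without control 3, with 2 above 0 and 4 below it. H2-Ab1, a class II antigen-presenting molecule, had 23.3, 21.0 and 9.35 CPM in cKO 1 to 3, against 18.0, 22.1 and 45.3 CPM in control 1 to 3. Its log2 fold change was -0.56 (SE 0.326), and -0.045 without control 3. Zbtb46 at 0.39 (SE 0.360) and Itgax at 0.20 (SE 0.117) lay above 0. Genes of red cells and endothelium were close to the floor, with sums of at most 4.3 and 10.9 CPM in any library and none tested. Of T and NK cell genes only Cd4 was tested, at 0.60 (SE 0.358), and Cd3g and Gzma had no read in any library.

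**Figure D5:**
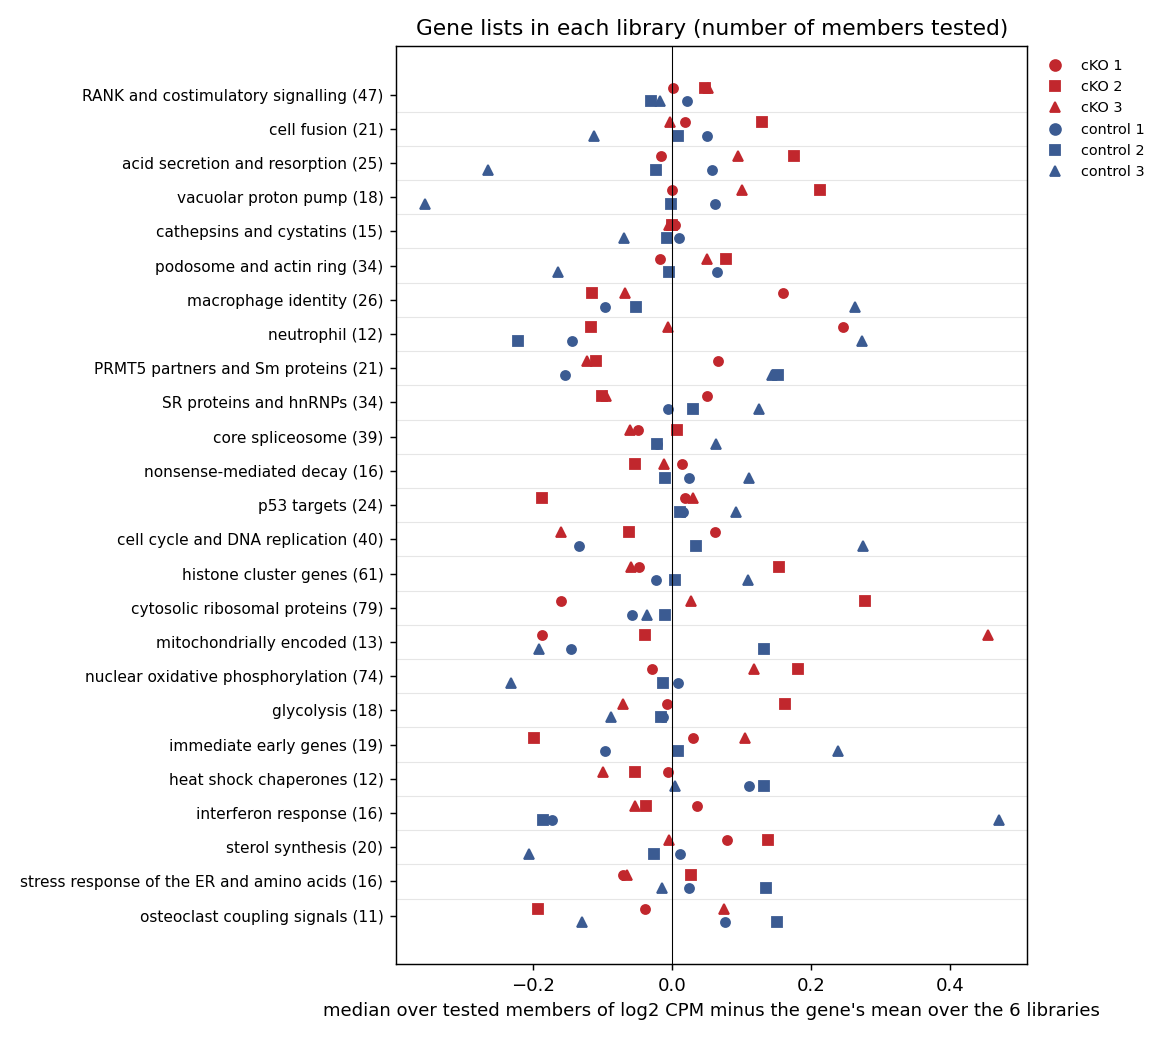
Median over the tested members of each gene list of log2 CPM minus the gene's mean over the 6 libraries (horizontal axis), for cKO libraries (red, upper row) and control libraries (blue, lower row). Control 3 is the blue triangle, at -0.36 in the proton pump, -0.23 in oxidative phosphorylation, 0.26 in macrophage genes and 0.47 in interferon response genes.

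No other arginine methyltransferase gene and no gene of a PRMT5 partner or Sm protein was called. Among the arginine methyltransferases Prmt3 had -0.25 (SE 0.154), Prmt7 0.22 (SE 0.141) and Prmt2 0.36 (SE 0.272), all with overlap, and Prmt1, the main asymmetric enzyme, had an interval of -0.25 to 0.27. Wdr77, the obligate partner of PRMT5, had few reads, with 2.19, 10.1 and 16.6 CPM in cKO 1 to 3, against 6.01, 7.75 and 5.92 CPM in control 1 to 3, and an interval of -0.95 to 1.37. Of 23 partners and Sm proteins 21 were tested, none had an unadjusted p under 0.05, and the median was -0.01. Snrpd1, an Sm protein, had 31.3, 41.1 and 35.3 CPM in cKO 1 to 3, against 36.05, 41.9 and 47.7 CPM in control 1 to 3.

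No splicing regulator or core spliceosome gene was called, and their log2 fold changes went both ways. Of 34 SR proteins and hnRNPs, 1 was higher and 4 were lower at an unadjusted p under 0.05, beside 2.65% and 2.11% of all genes, and the median was -0.08. Srsf2 had 120, 159 and 124 CPM in cKO 1 to 3, against 98.5, 89.5 and 103 CPM in control 1 to 3, a log2 fold change of 0.45 (SE 0.127, edgeR adjusted p = 0.878) with no overlap. Srsf1 had 245, 181 and 200 CPM in cKO 1 to 3, against 250, 249 and 262 CPM in control 1 to 3, a log2 fold change of -0.26 (SE 0.118), and Srsf3 had the same log2 fold change of -0.26 (SE 0.120). Hnrnpu had -0.43 (SE 0.180). Of 39 core spliceosome genes 4 lay below all controls in every cKO library and none above, beside 5.53% and 5.03% of all genes. Among the 4 were Snrpa1 of the U2 particle at -0.36 (SE 0.155) and Snrnp48 of the minor spliceosome at -0.49 (SE 0.240). The median of the 39 was -0.01, and 0.05 without cKO 1 or without control 3. All 73 intervals of these 2 lists lay within a 2-fold change. Magohb, a subunit of the exon junction complex, had -0.92 (SE 0.443) at 2.47 to 6.96 CPM. Magohb passed the filter on low counts only with its control libraries, so being tested is no support for a fall. It was the lowest of 16 genes of nonsense-mediated decay, of which none had an unadjusted p under 0.05. Their median was -0.05, and 0.01 without cKO 2.

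Genes of the p53 response and the cell cycle were not called either. Of 24 p53 targets tested none had an unadjusted p under 0.05, and Cdkn1a, which encodes the cell cycle inhibitor p21, had 45.8, 37.8 and 42.6 CPM in cKO 1 to 3, against 42.5, 48.1 and 56.1 CPM in control 1 to 3. Mdm2, the ubiquitin ligase of p53, had an interval of -0.39 to 0.09. All 40 cell cycle genes were tested, with a median of -0.10, and of 0.01 without control 3. Ccna2, cyclin A2, had 87.2, 86.5 and 80.0 CPM in cKO 1 to 3, against 89.7, 96.5 and 120 CPM in control 1 to 3, a log2 fold change of -0.27 (SE 0.131), and of -0.13 without control 3. Ccnb2, cyclin B2, had -0.28 (SE 0.140). Neither overlapped between the groups. In this list 3 genes lay below all controls in every cKO library and none above, beside 5.53% and 5.03% of all genes. None of the 40 had an unadjusted p under 0.05.

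The respiratory chain was the list with the most genes at an unadjusted p under 0.05. Of 74 nuclear subunits tested, 17 were higher and none was lower, beside 2.65% and 2.11% of all genes, and 10 lay above and 1 below all controls, beside 5.03% and 5.53%. None passed after adjustment. Uqcrq, a subunit of complex III, had 147, 186 and 191 CPM in cKO 1 to 3, against 125, 132 and 119 CPM in control 1 to 3, a log2 fold change of 0.46 (SE 0.121). Ndufs5, of complex I, had 37.8, 92.4 and 66.5 CPM in cKO 1 to 3, against 34.0, 32.2 and 32.0 CPM in control 1 to 3, a log2 fold change of 0.91 (SE 0.246), and it passed without cKO 1 at 1.29 (edgeR adjusted p = 0.0111). Cox7a2, of complex IV, had 0.32 (SE 0.107) with no overlap, and Atp5e, of the ATP synthase, 0.55 (SE 0.177) with overlap. Atp5e passed without cKO 1 at 0.80 (edgeR adjusted p = 0.0357), and stood at 0.28 without cKO 2. The median of the list was 0.16, and 0.07 without control 3. By library it stood at -0.03, 0.18 and 0.12 log2 units from the genes' means in cKO 1 to 3, against 0.01, -0.01 and -0.23 in control 1 to 3, so that cKO 1 lay close to controls 1 and 2. Short genes as a class moved the same way. The list's median exon length was 1718 bases, against 4638 bases over all genes with a length, and the shortest 20% of all genes had a median log2 fold change of 0.05 against -0.03 in the longest 20%. In cKO 2 the shortest genes stood at 0.07 and the longest at -0.05 log2 units from the genes' means. The part of transcript length and of control 3 in this list was not tested.

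Ribosomal protein genes, which are as short, went both ways. All 79 were tested, 6 were higher and 4 were lower at an unadjusted p under 0.05, beside 2.65% and 2.11% of all genes. A log2 fold change above 0 was found in 50 of them and below 0 in 29, beside 5404 and 5320 of all 10724 genes. The median was 0.11, and -0.04 without cKO 2. Rpl28 had 129, 214 and 123 CPM in cKO 1 to 3, against 98.9, 110 and 93.7 CPM in control 1 to 3, a log2 fold change of 0.61 (SE 0.167), and of 0.33 without cKO 2, while Rpl5 had 780, 586 and 767 CPM in cKO 1 to 3, against 930, 877 and 937 CPM in control 1 to 3, a log2 fold change of -0.36 (SE 0.120). Neither overlapped between the groups. Rpl28 was the only 1 of the 79 above all controls in every cKO library, beside 5.03% of all genes. Rpl5 was 1 of 2 below them, beside 5.53%. Many ribosomal protein genes have near-identical pseudogenes that could share their reads. The 13 genes of the mitochondrial genome had a median of 0.10, and of -0.07 without cKO 3. They stood highest in cKO 3, at 0.45 log2 units from their means. In glycolysis Gapdh had 88.6, 266 and 89.3 CPM in cKO 1 to 3, against 93.7, 100 and 71.4 CPM in control 1 to 3, a log2 fold change of 0.70 (SE 0.300) in which cKO 2 alone stood high, and 0.01 without cKO 2.

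No gene of stress or inflammation was called. Hspa1b, the inducible HSP70 gene, had 10, 3 and 1 reads in cKO 1 to 3, against 12, 14 and 39 reads in control 1 to 3, a log2 fold change of -1.75 (SE 0.536, edgeR adjusted p = 0.950), with no overlap in CPM and the highest level in control 3. Without control 3 it was -1.10. Hspa1b passed the filter on low counts only with its control libraries, so being tested is no support for a fall in cKO. The median of 16 interferon response genes was -0.14, and 0.13 without control 3. Ccl9, a chemokine that osteoclasts make, had 771, 616 and 632 CPM in cKO 1 to 3, against 759, 898 and 882 CPM in control 1 to 3, a log2 fold change of -0.33 (SE 0.119). In sterol synthesis Insig1, which holds back the SREBP pathway, had 0.38 (SE 0.143), and the median of 20 genes was 0.14. Among genes of the stress response of the ER, Xbp1 had -0.24 (SE 0.123) with no overlap. Of the signals from osteoclasts to osteoblasts none of 11 had an unadjusted p under 0.05, and Sema4d had 1064, 1277 and 1158 CPM in cKO 1 to 3, against 1159, 1070 and 906 CPM in control 1 to 3.

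Outside these lists, the genes with the smallest unadjusted p among those with no overlap and an average log2 CPM of at least 4 were of mixed function. Higher in every cKO library were Brpf1, a scaffold of a histone acetyltransferase, at 0.59 (SE 0.139), Rabgef1, an exchange factor for RAB5, at 0.58 (SE 0.151), the metalloreductase gene Steap4 at 0.53 (SE 0.140), the metallothionein gene Mt3 at 0.49 (SE 0.133) and Pla2g7, which inactivates platelet-activating factor, at 0.47 (SE 0.131). Brpf1 had 94.9, 111 and 74.8 CPM in cKO 1 to 3, against 66.9, 60.5 and 60.9 CPM in control 1 to 3. Lower in every cKO library were Ppan, a ribosome assembly gene, at -0.44 (SE 0.120), the folate enzyme gene Fpgs at -0.83 (SE 0.229), Rabggtb, a subunit of the Rab prenyltransferase, at -0.58 (SE 0.162), the annexin partner gene S100a10 at -0.37 (SE 0.102) and the noncoding 1110038B12Rik at -0.59 (SE 0.147). Genes for small nucleolar RNAs lie within Rabggtb and 1110038B12Rik. Mid1, a ubiquitin ligase that crosses the pseudoautosomal boundary of the mouse X chromosome, had 37.3, 16.0 and 7.27 CPM in cKO 1 to 3, against 41.7, 48.8 and 79.4 CPM in control 1 to 3, a log2 fold change of -1.20 (SE 0.328) with the highest level in control 3. Without cKO 1 it passed at -2.24 (edgeR adjusted p = 0.0226), as did Rabggtb at -0.85 (adjusted p = 0.0454). With all 6 libraries, each of these 11 genes had an adjusted p of at least 0.841 from edgeR.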

How the data were processed

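RNA was extracted with a Maxwell 16 kit, and libraries were made by Ion Torrent Proton protocols, per the labels. The submitters' processing notes list kallisto 0.46.0, Trim Galore 0.6.4 and FastQC 0.1.1.8, with GRCm38. The authors deposited raw counts per gene, whole numbers with no scaling, and no source used here gives the program that wrote them or its use of strand. The same table also holds the p-value, FDR and fold change of the authors' own test, which were not used. The 2 tables of periosteal stem cells were not used here.

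Counts were tested in R 4.3.3 with edgeR 4.0.16 (filterByExpr, TMM, quasi-likelihood test, two-sided, Benjamini-Hochberg over 10724 genes, threshold 0.05) with all 6 libraries and no covariate. The genes tested hold 99.2% to 99.4% of the counts. Total counts per library were 984885 to 3608940. The p-values measure the spread between these libraries. The test was also run on simulated counts made with the means, library sizes and dispersions of these data. The biological coefficient of variation was 0.111. Alternatives were DESeq2 size factors, DESeq2 1.42.0, no filter, at least 10 reads in every library, each library left out, and the replicate number as a block. No 2 libraries of a group agreed within sampling noise.

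Genes were named by a rule: Prmt5, the markers, Tnfrsf11a and Dcstamp; every gene called; the 10 higher and 10 lower genes of smallest unadjusted p with no overlap and an average log2 CPM of at least 4; up to 4 members of each of 36 lists; and the 10 genes of highest mean CPM. The members and lists were chosen with earlier results of these data known, and other genes were named with their values in view. Gene positions, exon lengths and 50-base stretches came from GENCODE on GRCm38, with a position for 10308 genes tested. Promoters came from RefSeq. Values of some list members are not reported here.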

Additional observations from a re-analysis of the deposited data

How the results depend on the processing

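The number of genes called by edgeR, 4 of 10724, was 3 with the size factors of DESeq2 and 3 with DESeq2 itself (Hist1h2al, Ighg2b and Ctsk). It was 46 with no filter on low counts, 0 with at least 10 reads in every library (436 at an unadjusted p under 0.05) and 0 to 9 with 1 library left out. It was 9 without cKO 1, of which 1 was among the 4, and 0 without cKO 3 (383 at an unadjusted p under 0.05) or without control 2 (412). Deviations of same-numbered libraries correlated at r = -0.07, 0.07 and -0.07, which shows no pairing by replicate number but cannot exclude one. With the replicate number as a block no gene was called (435 at an unadjusted p under 0.05). The log2 fold change of Prmt5 was -0.99 in DESeq2 (adjusted p = 0.0550), -1.02 with at least 10 reads in every library (adjusted p = 0.0710), -0.97 with the block (adjusted p = 0.119) and -1.10 to -0.85 with 1 library left out. Of 143 other named genes under these alternatives, 1490 of 1548 values kept their direction and side of the threshold. All but Olfml3, Hist1h2al and Ighg2b were not called in the main fit, so for most genes keeping their side says little. The direction turned in 13 genes, each time with 1 library left out. The ranges were -0.022 to 1.10 for Ddx3y, -0.055 to 0.91 for Kdm5d, -0.018 to 0.13 for Eef1a1, -0.53 to 0.15 for H2-Aa, -0.34 to 0.21 for Kit, -0.0031 to 0.24 for Pdgfb and -0.67 to 0.12 for Rtp4. They were -0.014 to 0.38 for Runx2, -0.0042 to 0.080 for Tnfrsf11a, -0.068 to 0.71 for Tnfrsf11b, -0.013 to 0.40 for mt-Atp8, -0.050 to 0.24 for mt-Co1 and -0.0026 to 0.37 for mt-Co2. For Prmt5, Olfml3, Hist1h2al and Ighg2b the direction held under every alternative in which the gene was tested, but each call was lost under some, and the cause was not tested. Hist1h2al and Ighg2b were not tested with at least 10 reads in every library. Of 373 list medians under the alternatives, 12 moved by more than the spread between libraries. The medians of 19 of 34 lists changed sign under at least 1 alternative, among them ribosomal proteins (-0.04 without cKO 2) and mitochondrially encoded genes (-0.07 without cKO 3). The depth of cKO 2 and cKO 3 limits what can be seen in rare genes.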
